A study of Caenorhabditis elegans with 6 samples.

Results

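The 80 genes described here carry symbols of cytosolic ribosomal proteins of Caenorhabditis elegans and were taken from 32238 genes in each of 2 count tables. They were chosen by symbol alone, as rpl or rps, a hyphen and a number, then optionally a letter and optionally a point and a number, together with rla-0, rla-1 and rla-2. By symbol, 49 belong to the large subunit (46 rpl and 3 rla genes) and 31 to the small subunit (rps genes). One of the 49, rpl-24.2, is named after a ribosome assembly factor in the current RefSeq table, and 5 genes with a current ribosomal protein name there (rpl-36.A, Y37E3.8, C37A2.7, W01D2.1 and ubl-1) have a symbol outside the rule. Small RNA was sequenced from embryos of the dot-1.1(knu339); ced-3(n1286) double mutant (3 libraries) and of the ced-3(n1286) single mutant (3 libraries), so both genotypes carried the ced-3 allele. dot-1.1 encodes a relative of the mammalian enzyme DOT1L, which methylates histone H3 in nucleosomes, and ced-3 encodes the caspase of programmed cell death. Embryos came from egg-laying adults raised at 20 °C, were freed from them with alkaline hypochlorite, and gave inserts of 18 to 40 bases. The question is how the dot-1.1 mutation bears on small RNAs in this background.

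A ribosome joins a small subunit, which reads the messenger RNA, to a large subunit, which forms peptide bonds. Each subunit holds ribosomal RNA and a fixed set of proteins, and the messenger RNAs of these proteins are among the most abundant in growing cells. In a small RNA library, sense reads at such a gene can be pieces of its messenger RNA, whereas antisense reads can be small interfering RNAs copied from it by RNA-dependent RNA polymerases. The tables hold no read lengths or first bases, so these kinds of RNA cannot be told apart here.

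Each library held 19206363 to 26409182 sense counts and 4891289 to 6568937 antisense counts. Libraries differed in the share of sense counts at microRNA genes, which was 72.9%, 79.0% and 89.5% in dot-1.1 ced-3 replicates 1 to 3 and 77.8%, 92.4% and 86.7% in ced-3 replicates 1 to 3. dot-1.1 ced-3 replicate 3 and ced-3 replicate 2 thus had the highest share in their genotype, and they are called the microRNA-rich libraries. The embryo markers mir-35 to mir-42 summed to 4834074 to 8563569 sense counts in dot-1.1 ced-3 libraries and to 4972863 to 6694494 in ced-3 libraries, whereas let-7, a microRNA of late larvae and adults, had 288 to 762 counts in any library. lin-4, another microRNA of larvae and adults, had 35, 84 and 208 counts in dot-1.1 ced-3 libraries and 19, 8 and 24 in ced-3 libraries (log2 fold change 3.21 ± 0.83, edgeR adjusted p = 0.590). Yolk protein genes, 6 genes of the adult intestine, summed to 337, 304 and 284 sense counts in dot-1.1 ced-3 libraries and to 813, 7 and 677 in ced-3 libraries, with vit-4 and vit-6 at 0 in ced-3 replicate 2. Of the 6, 4 had a sense log2 fold change above 0, each with an unadjusted edgeR p under 0.05, and 0 passed after adjustment. Over all genes tested, 5.73% were higher at that unadjusted p. The 2 yolk genes with the most counts were below 0, vit-1 at -1.03 ± 0.95 and vit-2 at -1.13 ± 1.01. The part of these adult markers in the results was not tested. dot-1.1 itself had sense counts of 23, 40 and 32 in dot-1.1 ced-3 libraries and 75, 66 and 55 in ced-3 libraries. These raw counts did not overlap, and all dot-1.1 ced-3 values lay below all ced-3 values. After TMM scaling, which uses trimmed ratios over all genes, dot-1.1 ced-3 replicate 3 lay above ced-3 replicate 1. The genotypes thus overlapped on the TMM scale (log2 fold change -0.91 ± 0.52, edgeR adjusted p = 0.619) but not in raw counts. The ced-3 gene had 1 to 5 sense counts per library. Fragment counts at these genes do not check the genotypes.

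All 80 genes had sense counts, 27988 over the 6 libraries, and all had antisense counts, 9111 in total. Length was taken from the width in the deposited tables, which ranged from 225 to 4353 bases with a median of 650. Per kilobase of this width, the median gene had 421 sense counts and 109 antisense counts over all libraries. rps-7, which encodes a protein of the small subunit, had the highest sense level, 4603 counts per kilobase, followed by rpl-43 with 1225, rps-18 with 1074 and rpl-7 with 939. rpl-42 had the lowest sense level, 6.92 counts per kilobase from 5 counts in all. rpl-24.2 followed at the low end with 86.7 counts per kilobase and rpl-11.1 with 109.

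These genes lay on chromosome I (25), II (9), III (18), IV (18), V (8) and X (2) in build WBcel235. The X chromosome held 2.5% of them and 13.7% of all protein-coding genes, and the pair there was rpl-11.2 and rpl-25.1. By the annotation of that build, an exon of 10 of the 80 genes overlaps an exon of a gene on the other strand (rla-1, rpl-2, rpl-7A, rpl-14, rpl-22, rpl-28, rpl-32, rpl-39, rps-16 and rps-18). The overlaps span 3 bases (rpl-14) to 67 bases (rpl-7A), and within them antisense counts and sense counts of the neighbour cannot be told apart. Exons of 5 genes (rpl-5, rpl-7, rpl-23, rps-4 and rps-20) overlap an exon of a gene on the same strand, by 1 base (rpl-23) to 110 bases (rps-20). For 9 genes the deposited width exceeded the annotated exon bases by more than 1.5 times, most in rps-29, with a width of 4353 bases against 265 exon bases. The others were rla-1, rla-2, rpl-16, rpl-27, rps-0, rps-14, rps-16 and rps-25. Reads outside the annotated exons may be in their counts, and their levels per kilobase are lower than exon length would give.

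Sense counts over the 80 genes summed to 5888, 3298 and 1463 in dot-1.1 ced-3 replicates 1 to 3, and to 9961, 1347 and 6031 in ced-3 replicates 1 to 3. The 2 lowest sums, 1463 and 1347, were those of the microRNA-rich libraries, 1 of each genotype, and the genotypes overlapped. The sum did not follow the microRNA share in every library. That share was 86.7% in ced-3 replicate 3, near the 89.5% of dot-1.1 ced-3 replicate 3, yet its sum of 6031 was exceeded only in ced-3 replicate 1. Single genes followed the same order. The highest raw sense count lay in ced-3 replicate 1 for 72 of the 80 genes, and the lowest lay in dot-1.1 ced-3 replicate 3 or ced-3 replicate 2 for 77. The median gene had 65, 30 and 9 sense counts in the dot-1.1 ced-3 libraries, against 98, 8 and 58 in the ced-3 libraries.

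After TMM scaling, which sets libraries to a common level by trimmed ratios over all genes, the sums were 241, 146 and 104 counts per 1000000 in dot-1.1 ced-3 libraries and 267, 104 and 251 in ced-3 libraries. The means were 164 ± 70.4 in dot-1.1 ced-3 and 207 ± 89.8 in ced-3 (SD, n = 3 each), a difference smaller than the spread between libraries. As a share of all sense counts at protein-coding genes, the 80 genes made up 0.589%, 0.286% and 0.204% in dot-1.1 ced-3 libraries and 0.735%, 0.249% and 0.590% in ced-3 libraries. The lowest share of each genotype was again in its microRNA-rich library. The part of the microRNA share in these sums was not tested. Less RNA per cell and fewer cells that hold it cannot be told apart in whole embryos.

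**Figure D1:**
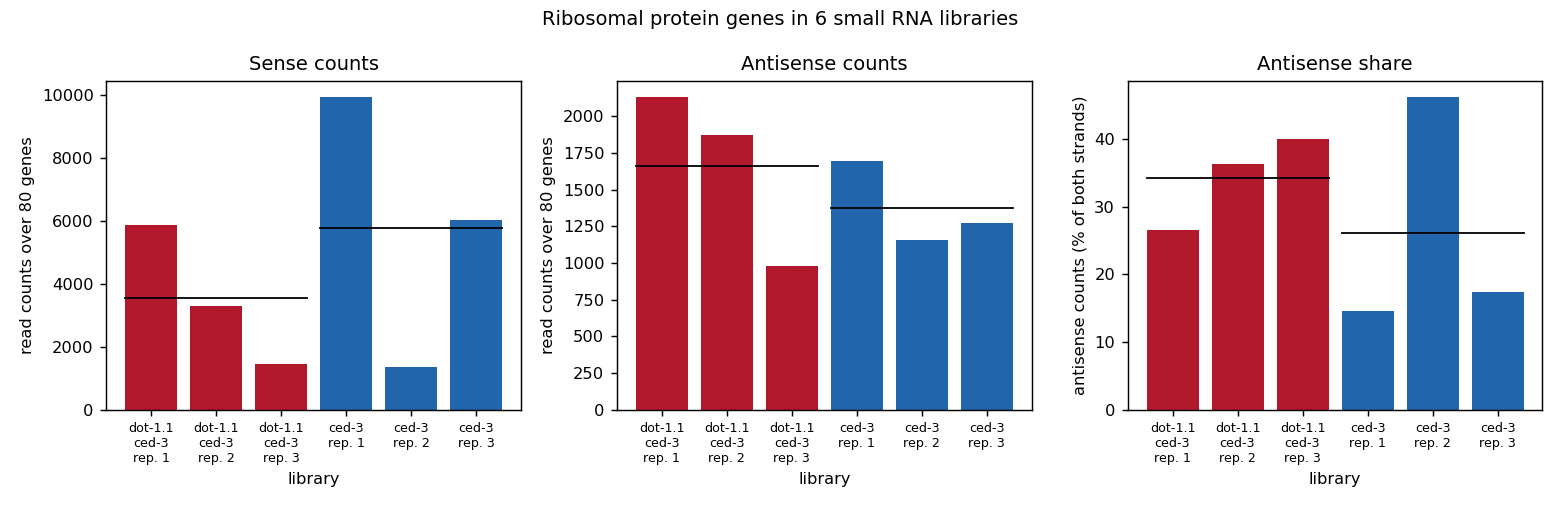
Summed sense counts, summed antisense counts and antisense share (% of counts on both strands) of the 80 ribosomal protein genes in each library. Bars are single libraries (red dot-1.1 ced-3, blue ced-3) and black lines are genotype means (n = 3); sense sums run from 1347 to 9961 and the genotypes overlap in all 3 panels.

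No ribosomal protein gene passed the test for a sense difference between the genotypes. Of the 80 genes, 78 had enough counts to be tested, and 0 of 78 were called at an edgeR adjusted p under 0.05, as were 0% of all 7680 genes tested in either direction. At an unadjusted edgeR p under 0.05, 0 of the 78 were higher in dot-1.1 ced-3 (5.73% of all genes tested were) and 1, rpl-39, was lower (2.4% of all genes). DESeq2 likewise called 0 of these 78. In no tested ribosomal protein gene did the 3 dot-1.1 ced-3 values all lie below the 3 ced-3 values (5.79% of all genes) or all above them (6.97%).

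The fitted sense fold changes lay mostly on the lower side for dot-1.1 ced-3. They ranged from -1.46 to 0.43 on the log2 scale with standard errors of 0.39 to 0.91, and 66 of 78, or 84.6%, were below 0, against 49.1% of all genes tested. Their median was -0.38, against 0.01 over all genes. Large subunit genes had a median of -0.44, with 43 of 47 below 0, and small subunit genes had a median of -0.34, with 23 of 31 below 0. A value below -0.5 was found in 26 genes and one above 0.5 in 0. These counts describe the list and carry no test, since all 78 values come from the same 6 libraries.

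The shift depended on single libraries. Without dot-1.1 ced-3 replicate 3, 47 of 79 tested genes were below 0 and their median was -0.08, against -0.07 over all genes. Without ced-3 replicate 1 the median was -0.19 (all genes -0.10), without dot-1.1 ced-3 replicate 2 it was -0.24 (all genes 0.06), and without ced-3 replicate 3 it was -0.41 (all genes -0.10). Without dot-1.1 ced-3 replicate 1 it was -1.09, and without ced-3 replicate 2 it was -0.76. Without both microRNA-rich libraries, 64 of 79 genes were below 0, with a median of -0.43 against 0.09 over all genes. Scaling to library totals, to microRNA counts or to protein-coding counts put 75 of 78 genes below 0 in each case. It also moved the median of all genes to -0.27, -0.18 and -0.22, and the ribosomal protein median lay 0.40 below that of all genes with TMM and 0.53, 0.52 and 0.36 below it with these 3 scalings.

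**Figure D2:**
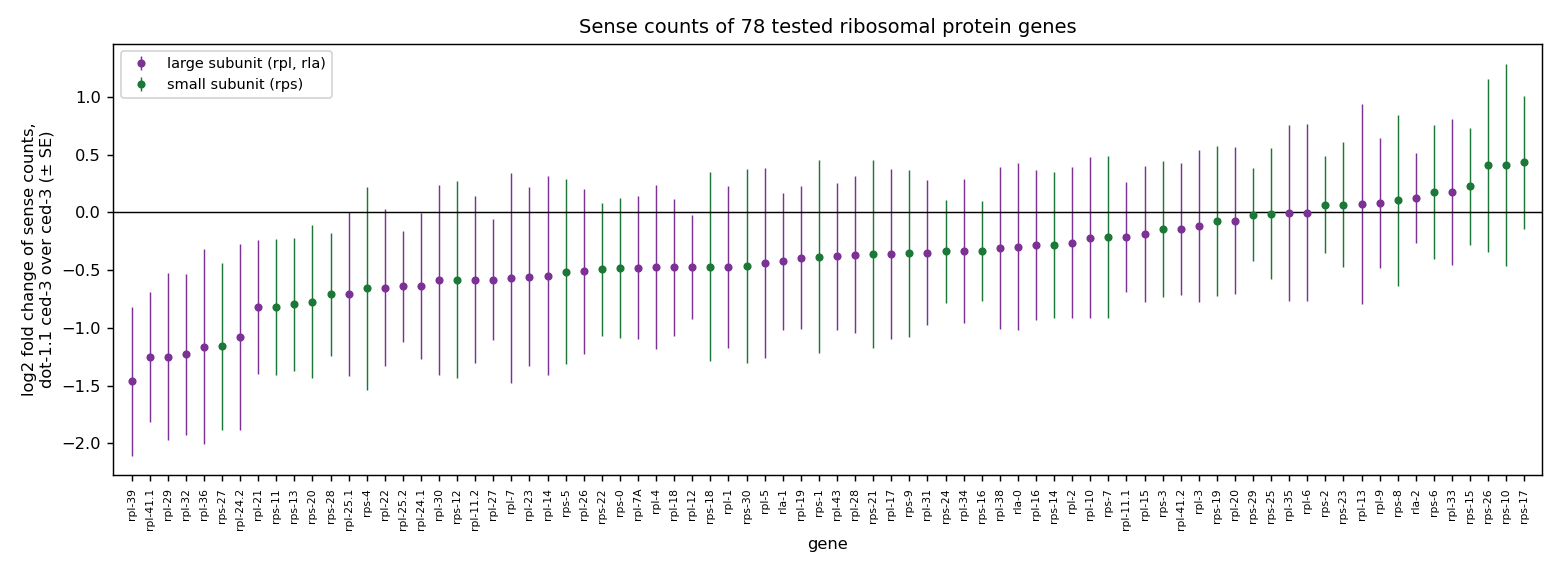
Log2 fold change of sense counts, dot-1.1 ced-3 over ced-3, with its standard error, for the 78 tested ribosomal protein genes, ordered by value (purple large subunit, green small subunit). Values run from -1.46 (rpl-39) to 0.43 (rps-17), 66 lie below 0, and no gene passed the test.

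The 6 genes with the smallest sense p all had a width under the median, and 5 of them encode large subunit proteins. rpl-39, which encodes a small protein of the peptide exit tunnel, had 18, 15 and 2 sense counts in dot-1.1 ced-3 libraries and 59, 7 and 54 in ced-3 libraries. Its log2 fold change was -1.46 ± 0.64 (SE, edgeR adjusted p = 0.590). The count of 7 in ced-3 replicate 2 lay between the dot-1.1 ced-3 values, so the genotypes overlapped. rpl-41.1, for a very short basic protein, had 16, 10 and 4 counts against 43, 6 and 41, a log2 fold change of -1.25 ± 0.56 (edgeR adjusted p = 0.590). rpl-32 had 44, 15 and 10 counts in dot-1.1 ced-3 against 166, 7 and 58 in ced-3 (log2 fold change -1.23 ± 0.70), and rpl-29 had 29, 6 and 2 against 66, 7 and 38 (-1.25 ± 0.72). rps-27 of the small subunit had 15, 15 and 3 against 49, 2 and 45 (-1.16 ± 0.73), and rpl-21 had 31, 14 and 8 against 69, 6 and 48 (-0.82 ± 0.58). By raw count, in each of these ced-3 replicates 1 and 3 were the 2 highest libraries and ced-3 replicate 2 was among the low ones.

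Among large subunit genes, rpl-27 had the most sense counts, 268, 134 and 60 in dot-1.1 ced-3 libraries and 465, 91 and 294 in ced-3 libraries (log2 fold change -0.58 ± 0.52, edgeR adjusted p = 0.757). rpl-5, whose protein binds 5S ribosomal RNA, had 216, 98 and 11 counts in dot-1.1 ced-3 against 379, 23 and 168 in ced-3. rpl-7 had 180, 59 and 12 against 336, 8 and 155. Both genes were lowest in the microRNA-rich library of each genotype, and rpl-7 differed by 14.6 times between its highest and lowest scaled library. The size of that spread varied over the genes. The 9 genes with a long deposited width had a highest-to-lowest ratio of 3.77 in the median (1.23 in rps-29 to 4.70), and 69 others had 6.74 (1.96 to 47.4). rps-29, with 97, 99 and 58 sense counts in dot-1.1 ced-3 libraries and 145, 62 and 96 in ced-3 libraries, was the most even of all 78 genes with such a ratio.

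The stalk of the large subunit recruits translation factors and is built on rla-0, with the acidic proteins of rla-1 and rla-2 attached. rla-0 had 164, 74 and 14 sense counts in dot-1.1 ced-3 and 254, 19 and 126 in ced-3, and rla-1 had 113, 69 and 27 against 213, 18 and 138. rla-2 was flatter, with 51, 60 and 31 counts in dot-1.1 ced-3 against 65, 28 and 60 in ced-3. Its scaled mean was 2.32 ± 0.298 counts per 1000000 in dot-1.1 ced-3 and 2.13 ± 0.382 in ced-3 (SD, n = 3 each). The log2 fold changes were -0.30 ± 0.72 for rla-0, -0.42 ± 0.59 for rla-1 and 0.12 ± 0.39 for rla-2, each smaller than its standard error.

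rps-7 (chromosome I, 10330879 to 10331808, WBcel235) stood apart from all other ribosomal protein genes, with 11.6% of their sense counts. It had 139, 644 and 540 sense counts in dot-1.1 ced-3 libraries and 749, 431 and 742 in ced-3 libraries. Its lowest raw count lay in dot-1.1 ced-3 replicate 1, a library that was not microRNA-rich, and its next lowest, 431, in ced-3 replicate 2, which was. After TMM scaling it had 5.70, 28.5 and 38.4 counts per 1000000 in dot-1.1 ced-3 libraries and 20.0, 33.3 and 30.9 in ced-3 libraries. The highest TMM-scaled value of each genotype thus lay in its microRNA-rich library, whereas the highest raw count of each genotype did not. TMM factors were 0.533 in dot-1.1 ced-3 replicate 3 and 0.580 in ced-3 replicate 2, against 1.14 to 1.95 in the other libraries. This order therefore depends on the scaling. Scaled means were 24 ± 17 counts per 1000000 in dot-1.1 ced-3 and 28.1 ± 7.07 in ced-3 (SD, n = 3 each), a log2 fold change of -0.22 ± 0.70 (edgeR adjusted p = 0.949). As a share of the sense counts of all 80 genes, rps-7 made up 2.36% (Wilson 95% interval 2.00% to 2.78%), 19.5% (18.2% to 20.9%) and 36.9% (34.5% to 39.4%) in dot-1.1 ced-3 replicates 1 to 3. In ced-3 replicates 1 to 3 it made up 7.52% (7.02% to 8.05%), 32.0% (29.6% to 34.5%) and 12.3% (11.5% to 13.2%). These intervals cover counting error only, and the spread between libraries of 1 genotype was many times wider. The annotation lists no other gene over its exons on either strand and no gene in its introns.

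The ratio of large to small subunit sense counts moved with rps-7. It was 1.55, 0.987 and 0.601 in dot-1.1 ced-3 libraries and 1.47, 0.729 and 1.32 in ced-3 libraries, with means of 1.05 ± 0.477 in dot-1.1 ced-3 and 1.17 ± 0.390 in ced-3 (SD, n = 3 each). Without the gene with the most counts in each subunit, rpl-27 and rps-7, it was 1.52, 1.48 and 1.31 in dot-1.1 ced-3 libraries and 1.66, 1.37 and 1.68 in ced-3 libraries. The means were then 1.44 ± 0.115 in dot-1.1 ced-3 and 1.57 ± 0.173 in ced-3. The ratio thus kept within a narrow range in all 6 libraries once this pair was left out, and the genotypes still overlapped. Per kilobase, the median large subunit gene had 90.7, 44.7 and 11.16 counts in dot-1.1 ced-3 libraries and 167, 12.7 and 91.7 in ced-3 libraries. The median small subunit gene had 97.4, 44.1 and 13.3 in dot-1.1 ced-3 and 137, 13.7 and 76.8 in ced-3, so both medians were highest in ced-3 replicate 1 and lowest in the microRNA-rich libraries.

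**Figure D3:**
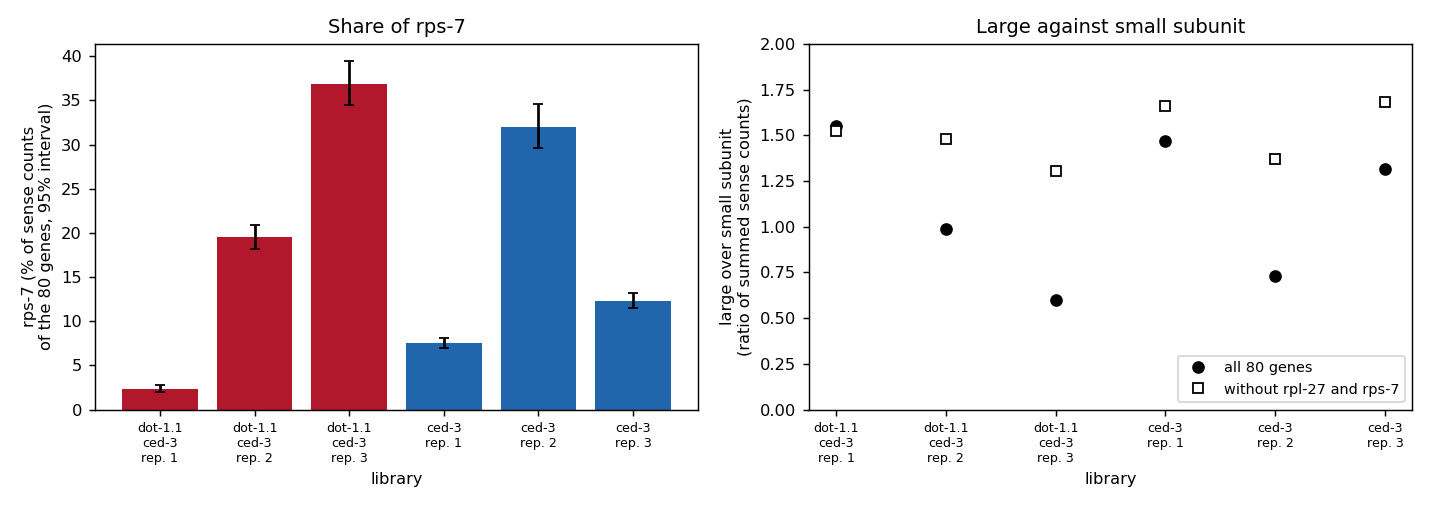
Left, rps-7 as a percentage of the sense counts of all 80 ribosomal protein genes in each library, with Wilson 95% intervals (counting error only). Right, the ratio of large to small subunit sense counts with all genes (filled) and without rpl-27 and rps-7 (open), where the range narrows to 1.31 to 1.68.

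Several of these proteins are encoded by a pair of genes with the same stem, whose reads the counting could have split or shared. rpl-11.1 on chromosome V had 16, 8 and 11 sense counts in dot-1.1 ced-3 and 20, 9 and 20 in ced-3, while rpl-11.2 on chromosome X had 75, 39 and 5 against 153, 11 and 67. rpl-25.1 on chromosome X had 14, 4 and 5 counts against 34, 1 and 17, and rpl-25.2 on chromosome I had 80, 46 and 31 against 158, 26 and 131. rpl-41.2, next to rpl-41.1 on chromosome I, had 68, 34 and 10 counts against 93, 11 and 52. In each pair 1 gene had the higher sense total (rpl-11.2, rpl-25.2 and rpl-41.2). Of the rpl-24 pair, rpl-24.1 had 57, 21 and 26 sense counts in dot-1.1 ced-3 and 143, 8 and 81 in ced-3, and rpl-24.2 (rsl-24D1 in the current RefSeq table) had 10, 3 and 1 against 17, 1 and 19.

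Summed over the libraries, antisense counts were fewer than sense counts for most ribosomal protein genes. The antisense share of these summed counts had a median of 21.6% over the 80 genes, and 6 genes had more antisense than sense counts. Within single libraries, 8, 21 and 38 genes had more antisense than sense counts in dot-1.1 ced-3 replicates 1 to 3, and 1, 46 and 6 in ced-3 replicates 1 to 3. Over all 80 genes together the share was 26.6% (Wilson 95% interval 25.6% to 27.6%), 36.2% (34.9% to 37.6%) and 40.0% (38.1% to 41.98%) in dot-1.1 ced-3 replicates 1 to 3. In ced-3 replicates 1 to 3 it was 14.6% (13.9% to 15.2%), 46.2% (44.3% to 48.2%) and 17.4% (16.6% to 18.3%). The means were 34.3 ± 6.92% in dot-1.1 ced-3 and 26.1 ± 17.5% in ced-3 (SD, n = 3 each), and ced-3 replicate 2 lay above all 3 dot-1.1 ced-3 libraries. The highest share of each genotype was in its microRNA-rich library, where the sense sum was lowest. All protein-coding genes together had antisense shares of 35.5%, 32.1% and 43.1% in dot-1.1 ced-3 libraries and 28.7%, 53.7% and 37% in ced-3 libraries, above those of the ribosomal protein genes in every library but dot-1.1 ced-3 replicate 2.

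The genes rich in antisense counts were not those rich in sense counts in several cases. Among the 78 genes with at least 100 counts over both strands, the share of counts summed over libraries was highest in rps-2 (77.6%), rps-13 (64.9%), rpl-24.2 (58.9%), rpl-34 (57.96%), rpl-7A (53.0%) and rps-10 (51.0%), and it was lowest in rpl-7 (5.06%). The order changed with the library. The share of rps-2 was 90.1%, 82.2% and 62.2% in dot-1.1 ced-3 libraries and 58.8%, 67.7% and 47.2% in ced-3 libraries, while that of rps-13 was 58.7%, 79.1% and 87.9% in dot-1.1 ced-3 and 37.5%, 88.1% and 67.2% in ced-3. rps-13 had 27, 34 and 29 antisense counts in dot-1.1 ced-3 libraries and 30, 37 and 39 in ced-3 libraries, beside 19, 9 and 4 sense counts against 50, 5 and 19. Its antisense counts were thus nearly level over the libraries while its sense counts were not. rpl-24.2 had 23, 12 and 5 antisense counts in dot-1.1 ced-3 against 9, 16 and 8 in ced-3, and rps-10 had 14, 26 and 17 against 14, 11 and 18. rpl-7A, whose exons overlap an antisense non-coding gene over 67 bases, had 45, 31 and 22 against 35, 13 and 20. Over the 80 genes, the Spearman correlation of sense and antisense totals was 0.449, a description over genes that share libraries and differ in length. Sense totals followed width with a correlation of 0.603 and antisense totals with 0.423.

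**Figure D4:**
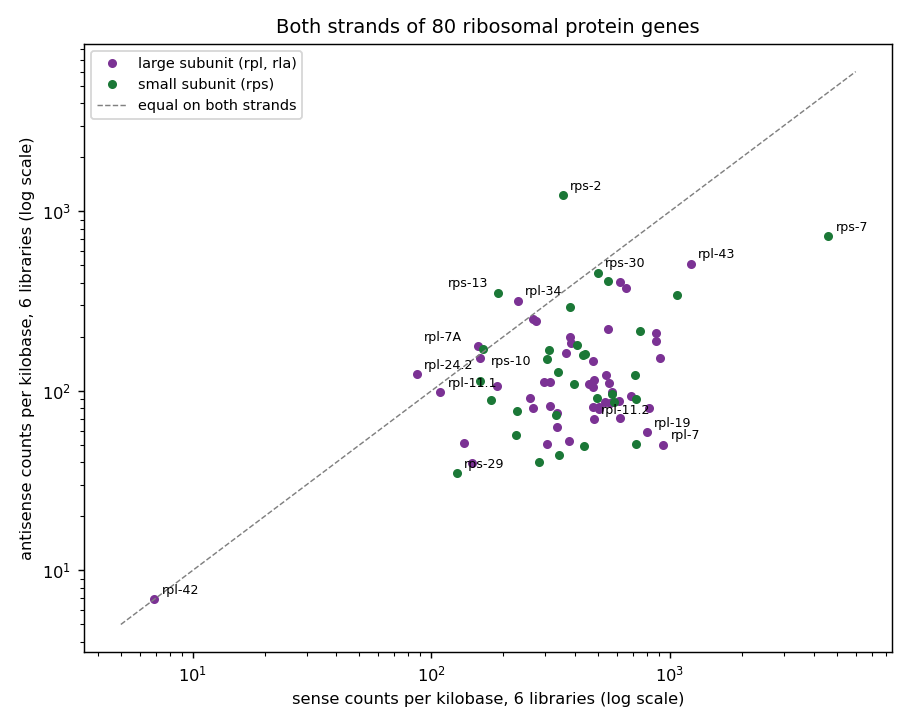
Sense counts per kilobase of deposited width (horizontal, log scale) against antisense counts per kilobase (vertical, log scale), summed over 6 libraries, for each of the 80 genes (purple large subunit, green small subunit). The dashed line marks equal counts: 6 genes lie above it, rps-2 farthest, and rps-7 lies far to the right with 4603 sense counts per kilobase.

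Antisense sums over the 80 genes were 2133, 1875 and 976 in dot-1.1 ced-3 libraries and 1697, 1159 and 1271 in ced-3 libraries. After TMM scaling they were 380, 280 and 239 counts per 1000000 in dot-1.1 ced-3 and 258, 252 and 237 in ced-3, with means of 299 ± 72.2 in dot-1.1 ced-3 and 249 ± 11.15 in ced-3 (SD, n = 3 each). The spread in dot-1.1 ced-3 came with 1 gene. Without rps-2 the means were 243 ± 16.5 in dot-1.1 ced-3 and 234 ± 8.73 in ced-3, and the scaled sums of all 6 libraries lay between 226 and 260. Large over small subunit antisense counts gave ratios of 0.597, 0.913 and 1.32 in dot-1.1 ced-3 and 0.886, 1.11 and 1.01 in ced-3. Without rpl-1 and rps-2, the genes with the most antisense counts in each subunit, the ratios were 1.03, 1.16 and 1.48 in dot-1.1 ced-3 and 1.01, 1.17 and 1.05 in ced-3. The difference of the mean log2 ratios, dot-1.1 ced-3 minus ced-3, was -0.16 with all genes and 0.17 without this pair, and the genotypes overlapped in both cases.

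The antisense test called 0 of the 54 ribosomal protein genes that passed the low count filter at an edgeR adjusted p under 0.05, and 0% of all 7297 genes tested. The 26 genes left out had at most 76 antisense counts in all. At an unadjusted edgeR p under 0.05, 1 gene was higher in dot-1.1 ced-3, rps-2 (2.91% of all genes tested were higher), and 1 was lower, rpl-11.2 (2.33%). DESeq2 called 0 of the 54 too. All 3 dot-1.1 ced-3 values lay below all ced-3 values in 2 of 54 genes, rpl-11.2 and rpl-34 (4.96% of all genes), and above them in 3, rpl-13, rla-0 and rpl-12 (5.28% of all genes). Fitted values were below 0 in 21 of 54 genes, against 48.1% of all genes tested. The median was 0.10 with TMM and -0.05 with protein-coding counts as library size, against 0.03 and -0.09 over all genes.

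rpl-11.2 (chromosome X, 2241738 to 2242618, minus strand, WBcel235) encodes a large subunit protein of the 5S ribosomal RNA complex. It had 0, 3 and 3 antisense counts in dot-1.1 ced-3 libraries and 19, 12 and 14 in ced-3 libraries. Scaled means were 0.394 ± 0.371 counts per 1000000 in dot-1.1 ced-3 and 2.703 ± 0.163 in ced-3 (SD, n = 3 each), without overlap, and the log2 fold change was -2.79 ± 0.73. It did not pass over all genes tested (edgeR adjusted p = 0.846). With so few counts in dot-1.1 ced-3 it passed the low count filter only through the ced-3 libraries, and genes as low in both genotypes were not tested, so a gap is favoured among such genes. Over 15 alternatives its log2 fold change ranged from -3.41 to -2.21 and its adjusted p from 0.0315 to 1.000, and only the edgeR fit with no low count filter passed. Its chromosome V copy rpl-11.1 had 15, 10 and 14 antisense counts in dot-1.1 ced-3 against 14, 18 and 5 in ced-3 (log2 fold change 0.11 ± 0.56, edgeR adjusted p = 0.978). The annotation lists no other gene on the other strand of either copy's exons, and the difference between the copies was not tested.

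rps-2 (chromosome IV, 7925298 to 7926391, minus strand, WBcel235) encodes a small subunit protein near the entry of the messenger RNA channel. It had 673, 249 and 51 antisense counts in dot-1.1 ced-3 libraries and 157, 42 and 59 in ced-3 libraries. Replicate 1 was highest in both genotypes, and the value of 51 lay within the ced-3 range. Scaled means were 56.5 ± 56.2 counts per 1000000 in dot-1.1 ced-3 and 14.7 ± 8.04 in ced-3 (SD, n = 3 each), a log2 fold change of 1.94 ± 0.81 (edgeR adjusted p = 0.846). Over 15 alternatives its log2 fold change ranged from 0.76, without dot-1.1 ced-3 replicate 1, to 2.46, and its adjusted p from 0.0129, with no low count filter, to 1.000. rps-2 took 31.6% (Wilson 95% interval 29.6% to 33.6%), 13.3% (11.8% to 14.9%) and 5.23% (3.997% to 6.81%) of the antisense counts of the 80 genes in dot-1.1 ced-3 libraries. In ced-3 libraries it took 9.25% (7.96% to 10.7%), 3.62% (2.69% to 4.86%) and 4.64% (3.62% to 5.94%). Its sense counts, 74, 54 and 31 in dot-1.1 ced-3 and 110, 20 and 66 in ced-3, did not follow this pattern, with a log2 fold change of 0.07 ± 0.42.

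**Figure D5:**
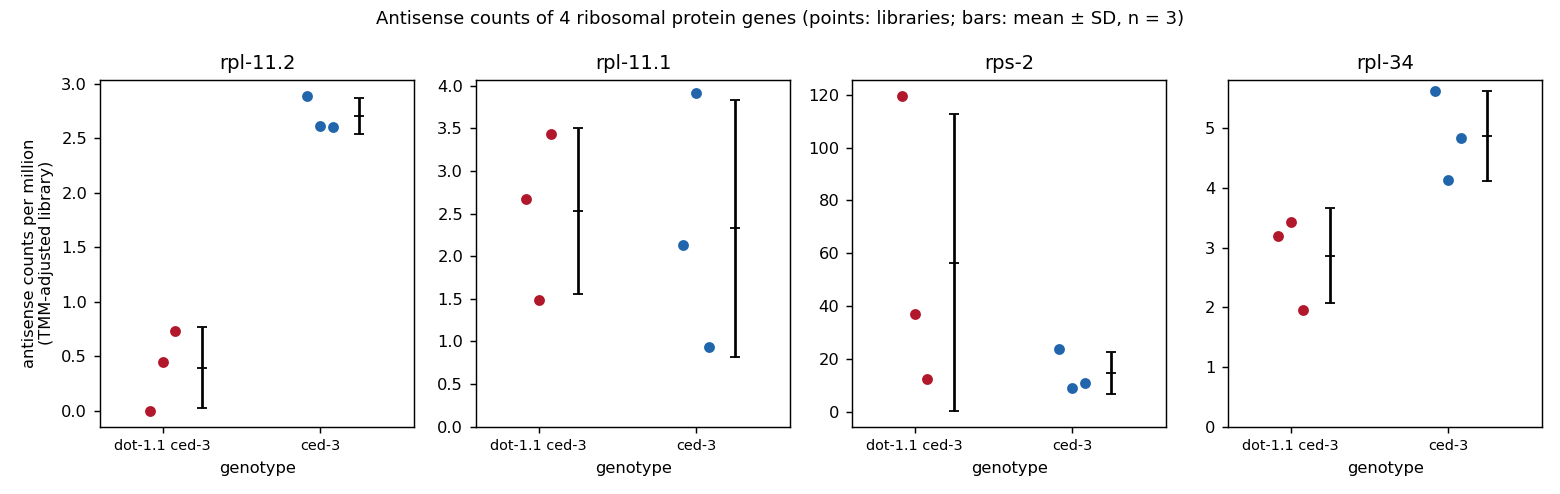
Antisense counts per 1000000 of the TMM-adjusted library for rpl-11.2, rpl-11.1, rps-2 and rpl-34 (points are libraries, bars mean ± SD, n = 3; red dot-1.1 ced-3, blue ced-3; each panel has its own axis). The genotypes are apart in rpl-11.2 and rpl-34 and overlap in rpl-11.1 and rps-2, and none passed the test over all genes.

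The other antisense values with a small p were smaller in size. rpl-34 had 18, 23 and 8 counts in dot-1.1 ced-3 libraries and 37, 19 and 26 in ced-3 libraries (log2 fold change -0.75 ± 0.36, SE, edgeR adjusted p = 0.846). Its scaled values did not overlap although its raw counts did. rpl-24.1 had 3, 10 and 3 against 20, 4 and 15 (-1.24 ± 0.63), and it overlapped on both scales. On the higher side, rpl-13 had 32, 14 and 10 antisense counts in dot-1.1 ced-3 against 13, 9 and 5 in ced-3 (1.06 ± 0.53). The stalk gene rla-0 had 18, 25 and 15 against 9, 12 and 15 (0.66 ± 0.40). The other stalk genes overlapped, with 17, 27 and 23 against 19, 19 and 11 in rla-1 (0.48 ± 0.41). rla-2 had 18, 12 and 15 against 13, 19 and 11 (0.08 ± 0.46). rpl-12, whose protein lies at the base of the stalk, had 17, 20 and 12 against 17, 10 and 7 (0.55 ± 0.39). Its scaled values did not overlap, but its p was not among the 6 smallest (edgeR unadjusted p = 0.197).

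The genes with the most antisense counts after rps-2 did not separate the genotypes. rps-7 had 144, 113 and 22 in dot-1.1 ced-3 libraries and 113, 60 and 59 in ced-3 libraries (log2 fold change 0.22 ± 0.52), so its antisense counts were highest in dot-1.1 ced-3 replicate 1, where its sense count was lowest. rps-14, for a protein of the small subunit platform, had 38, 60 and 41 against 107, 32 and 65 (-0.46 ± 0.38). rpl-1, for the protein of the mobile L1 stalk (rpl-10a in the current RefSeq table), had 111, 47 and 7 against 46, 19 and 34 (0.71 ± 0.74). Like rps-7 it was highest in dot-1.1 ced-3 replicate 1 and lowest in dot-1.1 ced-3 replicate 3. rps-16 had 47, 63 and 22 against 38, 35 and 48 (0.06 ± 0.34), and rpl-3, for a protein near the peptidyl transferase centre, had 34, 39 and 46 against 26, 49 and 43 (0.03 ± 0.44).

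Whether the antisense-to-sense ratio of a gene differed between the genotypes was tested by a strand-by-genotype term in 1 model of both tables, with each library as a block. Of 79 ribosomal protein genes tested, 0 were called at an edgeR adjusted p under 0.05, as were 0% of all 13616 genes. At an unadjusted edgeR p under 0.05, 1 gene had a higher ratio in dot-1.1 ced-3, rpl-41.1 (3.4% of all genes), and 0 had a lower one (2.28%). DESeq2 called 0 of the 79 as well. The values were 2.23 ± 1.09 for rpl-41.1, -2.15 ± 1.06 for rpl-11.2 and 1.504 ± 0.811 for rps-2 on the log2 scale (SE, edgeR adjusted p = 0.865, 0.871 and 0.891 in that order). The median over the 79 genes was 0.59, against 0.14 over all genes, and 15 of 79 genes were below 0, against 44.3% of all genes. Without dot-1.1 ced-3 replicate 3 the median was 0.01 (all genes 0.09) with 39 genes below 0. Without ced-3 replicate 1 it was 0.09 (all genes 0.08) with 37 below 0. Leaving out dot-1.1 ced-3 replicate 2 gave 0.33 (all genes 0.03) and ced-3 replicate 3 gave 0.29 (all genes 0.15). Leaving out dot-1.1 ced-3 replicate 1 gave 1.01 (all genes 0.08) and ced-3 replicate 2 gave 1.06 (all genes 0.003). Without both microRNA-rich libraries the median was 0.60 against -0.0075 over all genes, with 21 of 79 genes below 0.

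Other genes of the translation machinery were read from the same sense fit, and edgeR and DESeq2 called 0 of them in either direction. At an unadjusted edgeR p under 0.05, 1 elongation factor and 1 initiation factor were lower, 1 mitochondrial ribosomal protein gene was higher, and ribosome assembly genes and aminoacyl-tRNA synthetases had 1 higher and 1 lower each, beside 5.73% of all genes tested higher and 2.4% lower. A short list of ribosomal proteins under other names was below 0 in 3 of 3 genes, namely rack-1, a scaffold of the small subunit, and the ubiquitin fusions ubq-2 and ubl-1. rack-1 had 171, 82 and 33 sense counts in dot-1.1 ced-3 libraries and 281, 25 and 152 in ced-3 libraries (log2 fold change -0.28 ± 0.61). ubq-2 had 79, 64 and 31 against 139, 48 and 123 (-0.60 ± 0.41), and ubl-1 had 18, 16 and 7 against 39, 3 and 33 (-0.48 ± 0.58). Of the other genes that RefSeq now names as ribosomal proteins, rpl-36.A had 70, 27 and 2 sense counts in dot-1.1 ced-3 against 141, 3 and 66 in ced-3 (-0.68 ± 0.93), and C37A2.7, now rplp-2.1, had 38, 20 and 5 against 94, 11 and 46 (-0.91 ± 0.58). Y37E3.8, now rpl-27A, had 44, 34 and 11 against 58, 10 and 50 (-0.11 ± 0.49), and W01D2.1, now rpl-37.1, had 17, 18 and 5 against 20, 7 and 22 (-0.08 ± 0.49). On the antisense strand Y37E3.8 had 12, 15 and 13 counts in dot-1.1 ced-3 against 10, 3 and 4 in ced-3, without overlap (1.29 ± 0.51, edgeR unadjusted p = 0.0317 and adjusted p = 0.846). Beside 49.1% of all genes tested, elongation factors were below 0 in 7 of 8 genes (median -0.75), initiation factors in 21 of 22 (median -0.44) and aminoacyl-tRNA synthetases in 21 of 24 (median -0.50). eef-1A.1, the elongation factor with the most counts, had 520, 244 and 115 sense counts in dot-1.1 ced-3 against 1641, 54 and 644 in ced-3 (-0.90 ± 0.79), again highest in ced-3 replicate 1 and lowest in ced-3 replicate 2.

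Genes of ribosome assembly, a list that includes rpl-24.2, were below 0 in 13 of 18 (median -0.46) and RNA polymerase I subunits in 2 of 3 (median -0.34). dao-5, the assembly gene with the most sense counts, had 130, 77 and 45 in dot-1.1 ced-3 against 276, 44 and 142 in ced-3 (-0.49 ± 0.47). pro-1, an assembly factor, had values on the other side, with 313, 84 and 29 sense counts in dot-1.1 ced-3 libraries against 35, 25 and 18 in ced-3 libraries (log2 fold change 2.396 ± 0.727, edgeR adjusted p = 0.590). Proteins of the mitochondrial ribosome, which serve a separate translation system, were below 0 in 13 of 23 tested genes with a median of -0.16. After TMM scaling their summed level was even over the libraries, unlike the TMM-scaled sums of the cytosolic ribosomal protein genes. It was 35.9, 31.7 and 36.1 counts per 1000000 in dot-1.1 ced-3 and 37.9, 36.5 and 35.5 in ced-3. Their raw sums were not even, at 876, 716 and 508 in dot-1.1 ced-3 and 1415, 473 and 852 in ced-3. On the antisense strand edgeR and DESeq2 called 0 genes of these lists, and at an unadjusted edgeR p under 0.05 there were 2 assembly genes higher and 1 mitochondrial ribosomal protein gene lower. Over all antisense genes tested, 2.91% were higher and 2.33% lower at that p. Values below 0 were found in 48.1% of all genes and in 26 of 41 mitochondrial ribosomal protein genes, 3 of 7 elongation factors, 5 of 19 initiation factors, 8 of 20 assembly genes and 8 of 23 aminoacyl-tRNA synthetases.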

How the data were processed

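The authors deposited 2 tables of raw read counts per gene, 1 per strand, with 6 library columns each, and 0 columns were left unused. Per the submitters' processing notes the genome build is WBcel235; the aligner and the counter were not given in the sources used here. One table is named antisense. The other was read as sense because mir-35 to mir-42 had 4834074 or more counts per library in it and at most 75 in the antisense table. Genotype and replicate number linked each column to its sample. Short names in the titles of replicates 2 and 3 carry other numbers, so those 2 may be swapped within a genotype. The deposited tables also give a width in bases.

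Each table was fitted whole with edgeR 4.0.16 in R 4.3.3 (filterByExpr, TMM, robust quasi-likelihood F test of genotype, Benjamini-Hochberg adjustment, threshold 0.05), and the interaction on both tables stacked. All tests were two-sided. Alternatives were DESeq2 1.42.0, other library sizes, no filter, a replicate block and libraries left out. Dropping both microRNA-rich libraries from the sums was added after seeing the data. The procedures were checked on simulated data for fitted fold changes that follow the true ones. That check required no share of changed genes to pass the threshold, and the share recovered is not given here. A standard error is the log2 fold change divided by the square root of F. Positions came from Ensembl release 115, and current names from RefSeq, where 61 of the 80 genes keep their symbol.

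Genes named with values were drawn from the 6 with the most counts and the 6 with the smallest p per strand. Further ones were the 6 with the highest antisense share, the rla genes, pairs with 1 stem and any gene called in an alternative. Of the genes with the most sense counts, rps-18 is given per kilobase only. The top genes of the translation lists are given only in part. rps-29, rpl-12, rpl-36.A, Y37E3.8, C37A2.7, W01D2.1 and the genes named for rank per kilobase were added after their values were seen. Members and lists were chosen with earlier results of these data known. Libraries are called biological replicates in the labels, with 1 strain per genotype, and a p-value here reflects the spread between these libraries alone. Library pairs of a genotype differed beyond sampling noise (chi-square per degree of freedom 21.6 to 409). Sequences were not used here.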

Additional observations from a re-analysis of the deposited data

How the results depend on the processing

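No ribosomal protein gene was called in any sense or interaction fit. In the antisense fits 1 was called higher (rps-2) and 1 lower (rpl-11.2), both only with no low count filter. With that filter off, edgeR called 102 genes higher and 15 lower of all sense genes, 89 and 25 of all antisense genes, and 5 and 2 in the interaction, against 0 in each with the filter. Without the 2 microRNA-rich libraries it called 148 sense genes higher and 13 lower, and 17 higher and 28 lower in the interaction. DESeq2 called 1 sense gene higher over all genes with a count, 1 antisense gene higher and 7 lower on the genes edgeR tested, and 6 antisense genes lower over all genes with a count. Protein-coding counts as library size gave 2 antisense genes lower. Leaving out 1 library at a time gave 0 to 6 sense genes higher, and 0 to 26 higher and 0 to 47 lower in the interaction, the most without dot-1.1 ced-3 replicate 3. The antisense median of the ribosomal protein genes ranged from -0.0075 to 0.17 without 1 library and was -0.047 with protein-coding counts as library size. With more genes tested, 35 (DESeq2, all genes) and 36 (no filter) of 80 were below 0. The causes of these changes were not tested beyond the number of genes and libraries used. The direction was the same in every alternative for 41 of 78 sense and 27 of 54 antisense genes. Deviations of same-numbered libraries correlated at 0.687, 0.024 and -0.119 (sense) and 0.645, -0.019 and -0.013 (antisense), so the first pair deviated together and the others did not. dot-1.1 ced-3 replicate 3 correlated with ced-3 replicate 2 (0.600 and 0.559) and replicate 2 with ced-3 replicate 3 at 0.079 and 0.038. As numbers 2 and 3 are uncertain, a pairing was not established. With a replicate block 0 genes were called on either strand, and 69 of 78 sense and 20 of 54 antisense genes were below 0. Low counts limit the antisense values most, since 26 of the 80 genes had too few to test.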

Other observations

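Introns of 13 ribosomal protein genes hold 19 annotated snoRNA genes on the same strand, which guide chemical changes of ribosomal RNA, and 18 of them had a sense count. Their sense counts summed to 1211, 1875 and 1361 in dot-1.1 ced-3 libraries and to 1204, 580 and 816 in ced-3 libraries. F54E7.10 alone supplied 4009 of these 7047 counts, so the sums mostly reflect this gene. Of the 9 snoRNA genes that could be tested, 7 had a log2 fold change above 0 and 2 below 0. Their median was 0.76 and their smallest edgeR adjusted p was 0.590. Over all sense genes tested, 49.1% were below 0 and the median was 0.01. Other snoRNA genes were not compared. F54E7.10, in an intron of rps-12, had 857, 1276 and 535 counts in dot-1.1 ced-3 and 659, 291 and 391 in ced-3 (log2 fold change 1.20 ± 0.54, edgeR adjusted p = 0.590). Its host rps-12 had 80, 32 and 7 sense counts against 152, 3 and 83 (-0.58 ± 0.85). B0250.19, in an intron of rpl-2, had 84, 114 and 382 counts against 88, 76 and 86, and was highest in dot-1.1 ced-3 replicate 3, in which the sense sum of the ribosomal protein genes was the lowest of its genotype.

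An intron of rpl-24.1 also hosts the microRNA mir-353, with 116, 216 and 290 counts in dot-1.1 ced-3 libraries and 123, 113 and 126 in ced-3 libraries (log2 fold change 1.02 ± 0.63, edgeR adjusted p = 0.637). mir-354 lies in an exon of rps-20, on the same strand over 110 bases. It had 14, 2 and 1 counts in dot-1.1 ced-3 against 23, 1 and 6 in ced-3, lowest in the microRNA-rich library of each genotype. These counts cannot be told apart from pieces of rps-20 messenger RNA. rps-20 had 34, 8 and 4 sense counts against 70, 8 and 24. These genes were chosen after their values were seen.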
